A study of Homo sapiens with 2 samples.

Results

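YAP1 and 7 further genes, MYOF, CRIM1, TEAD1, LATS2, PTPN14, AJUBA and FSTL1, of which FSTL1 is in none of the Hippo pathway or target lists used below, were followed in SBC5, an established human small cell lung cancer cell line. All rows of the deposited table that carried one of these 8 names were taken. This gave 9 loci of 19217, and 8 gene names of the 12494 in the table, because AJUBA had 2 loci. Polyadenylated RNA was sequenced from cisplatin-resistant SBC5 cells, selected by raising cisplatin through 1, 2, 4 and 20 µg/ml, and from the parental SBC5 cells they came from. The labels do not say whether the resistant cells are a pool or a clone, nor whether cisplatin was present when RNA was taken. Each group had 1 library, so no difference below has a replicate check, no test was possible, and every comparison describes these 2 libraries. The genes were chosen with both libraries' values known, so their differences are given as a description.

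The Hippo pathway is a kinase relay in which the MST kinases activate LATS1 and LATS2, which in turn phosphorylate the coactivator YAP1 and its relative TAZ. Phosphorylated YAP1 is held in the cytoplasm by 14-3-3 proteins or degraded. Unphosphorylated YAP1 enters the nucleus, binds TEAD factors and switches on genes of growth, adhesion and matrix, some of which encode inhibitors of the pathway itself. In small cell lung cancer, YAP1 expression marks a subset of tumours and lines with few neuroendocrine features. Pathway activity is set largely by phosphorylation and location of YAP1, which RNA levels do not measure.

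The deposited values are FPKM, fragments scaled to locus length and library size. They summed to 1081047 in the resistant and 1019555 in the parental library, and the number of fragments behind a value is unknown. Differences are given as the log2 ratio of resistant over parental FPKM with 1 FPKM added to each, which understates the change of low genes, and the call higher was given from 1 upward and lower from -1 downward, that is past 2-fold. The genes compared were the 12405 that reached 1 FPKM in one library or both, of which 407 (3.28%) were called higher and 335 (2.70%) lower, and their median log2 ratio was -0.04. Among neuroendocrine markers, DLL3 had 18.9 FPKM in resistant and 19.3 FPKM in parental cells and SYP had 8.62 and 8.56 FPKM in the same order, while NCAM1 had 1.64 FPKM in resistant and 0.821 FPKM in parental cells (0.53). The keratin KRT8 had 2.36 FPKM in resistant and 2.09 FPKM in parental cells, and the fibroblast collagen COL1A1 had 3.85 FPKM in resistant and 2.34 FPKM in parental cells. Of the listed markers, 3 of 5 neuroendocrine, 1 of 3 epithelial and 1 of 3 fibroblast genes were compared. No listed leukocyte or endothelial marker was among the genes compared, and the part of other cell types in the results was not tested.

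MYOF and CRIM1 stood far above the other 6 genes in the size of their difference. Both were near the bottom of the parental library and at middle levels in the resistant one, whereas YAP1 itself and its kinase LATS2 were abundant and nearly equal in both libraries. FSTL1 was the gene with the largest difference in the opposite direction. Of the 8 genes, 2 were called higher and 0 lower, beside 3.28% and 2.70% of all genes. The median of the 8 was 0.30 on the log2 scale, with 6 above 0, where 44.4% of all genes lay, and 2 below 0, where 55.6% lay.

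**Figure D1:**
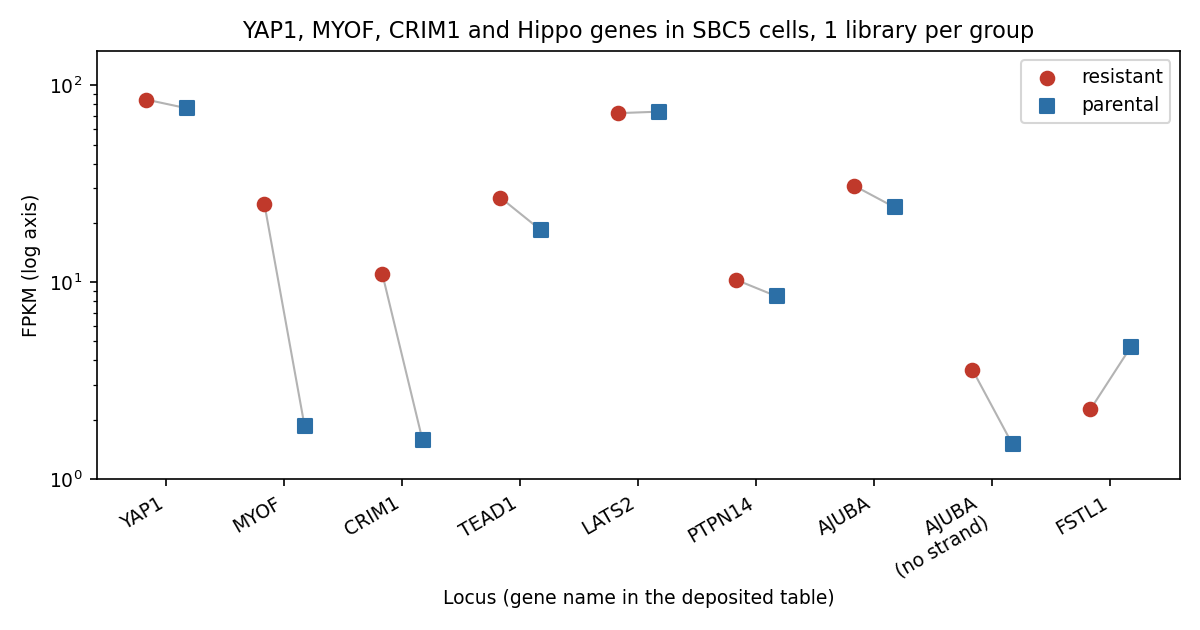
FPKM (log axis) of the 9 loci in the resistant library (circles) and the parental library (squares), with a line joining the values of a locus. MYOF and CRIM1 are over 10 FPKM in resistant cells and under 2 FPKM in parental cells, while YAP1 and LATS2 lie over 70 FPKM in both.

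YAP1, the coactivator, had 84.7 FPKM in resistant cells and 76.6 FPKM in parental cells. This is a log2 ratio of 0.14, which was 0.06 once the resistant values were scaled to the parental sum (the equal-sum scaling). The gene spans 102110461 to 102233423 of chromosome 11 on the plus strand in GENCODE release 29 (GRCh38, the hg38 that the submitters name), and is locus XLOC_003010 of the table. Its level exceeded that of 89.9% of the genes compared in the resistant library and of 87.8% in the parental library. The 250 bases before its RefSeq start (GRCh38.p14, chr11:102110197-102110446, plus strand) are shown because they hold the letters of the TEAD-bound MCAT element, CATTCC or its reverse complement GGAATG, in capitals.
YAP1: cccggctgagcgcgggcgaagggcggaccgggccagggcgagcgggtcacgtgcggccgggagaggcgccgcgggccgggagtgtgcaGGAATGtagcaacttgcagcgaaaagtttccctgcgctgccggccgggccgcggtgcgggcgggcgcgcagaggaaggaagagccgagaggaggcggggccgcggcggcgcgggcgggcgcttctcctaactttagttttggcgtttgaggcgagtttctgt

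TEAD1, one of the 4 DNA-binding partners of YAP1, had 26.9 FPKM in resistant cells and 18.4 FPKM in parental cells, a log2 ratio of 0.52. It spans 12674591 to 12944483 of the plus strand of chromosome 11 (XLOC_002776), far from YAP1. TEAD4 had 19.5 FPKM in resistant and 13.96 FPKM in parental cells (0.46), and TEAD3 had 5.36 and 4.66 FPKM (0.17) in the same order. TEAD2 had 21.6 FPKM in resistant and 22.01 FPKM in parental cells, a log2 ratio of -0.03 that turned to 0.01 after division by the median ratio, a scaling that sets the median resistant to parental ratio of all genes to 1. None of the 4 passed 2-fold. TEAD1 had the highest FPKM of the family in resistant cells and TEAD2 in parental cells: TEAD1 made up 36.7% of the summed TEAD FPKM in the resistant and 31.2% in the parental library, and TEAD2 29.4% and 37.3%. The sum over the family was 73.4 FPKM in resistant and 59.1 FPKM in parental cells. VGLL4, which binds TEADs in place of YAP1, had 12.0 FPKM in resistant and 8.07 FPKM in parental cells (0.52). Of 10 listed coactivators and TEAD partners 6 were compared and 0 passed 2-fold, where 5.98% of all genes did in either direction. Their median was 0.31 beside -0.04 over all genes. WWTR1, which encodes TAZ, was not analysed here.

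LATS2, which phosphorylates YAP1 and is itself induced by YAP1 and TEAD, had 72.3 FPKM in resistant cells and 73.5 FPKM in parental cells. Its log2 ratio of -0.02 was the smallest in size of the 8 and turned to 0.02 after division by the median ratio. LATS2 spans 20973032 to 21061547 of chromosome 13, minus strand (XLOC_004772). LATS1 had 29.3 FPKM in resistant and 29.4 FPKM in parental cells, so LATS2 made up 71.1% of the summed LATS FPKM in the resistant and 71.4% in the parental library. The other genes of the kinase core, all 7 of whose listed members were compared, were also within 2-fold, with a list median of -0.15. Over all genes, 5.98% passed 2-fold in either direction. MOB1B, a LATS cofactor, had 23.6 FPKM in resistant and 31.1 FPKM in parental cells (-0.38), and its relative MOB1A had 38.2 and 43.3 FPKM (-0.18) in that order. The MST kinase gene STK4 had 10.1 FPKM in resistant and 12.0 FPKM in parental cells (-0.23), and the scaffold SAV1 had 36.02 and 40.2 FPKM (-0.15).

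PTPN14, a phosphatase with a FERM domain that binds YAP1 and retains it outside the nucleus, had 10.3 FPKM in resistant cells and 8.48 FPKM in parental cells, a log2 ratio of 0.25. It spans 214348696 to 214552449 of chromosome 1, minus strand (XLOC_001227). Its closest relative PTPN21 had 9.03 FPKM in resistant and 4.29 FPKM in parental cells (0.92), which passed 2-fold with a pseudocount of 0.1 (1.06). PTPN13 went the other way and was called lower, with 3.82 FPKM in resistant and 12.5 FPKM in parental cells (-1.48), although it missed 2-fold narrowly with a pseudocount of 5 (-0.99). PTPN4 had 46.4 FPKM in resistant and 33.8 FPKM in parental cells (0.44). The 5 FERM domain phosphatases thus ran from -1.48 to 0.92, with PTPN14 at their median.

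AJUBA, a LIM protein that holds LATS kinases inactive at cell junctions, had 30.9 FPKM in resistant cells and 24.02 FPKM in parental cells in its main locus, a log2 ratio of 0.35. That locus (XLOC_005212) corresponds to 22971174 to 22982642 of chromosome 14, minus strand. A second AJUBA locus (XLOC_005402), which the order of the table places among loci without a strand, had 3.59 FPKM in resistant and 1.497 FPKM in parental cells. Its log2 ratio of 0.88 moved to 1.21 with a pseudocount of 0.1 and to 0.40 with a pseudocount of 5. Both loci had more FPKM in resistant than in parental cells, and the second was far below the first in each library. Of the relatives of AJUBA, LPP, an adhesion-site protein, was called higher, with 46.8 FPKM in resistant and 20.7 FPKM in parental cells (1.14). WTIP had 12.9 FPKM in resistant and 6.96 FPKM in parental cells (0.80), and ZYX, the gene of zyxin, had 104 and 82.9 FPKM (0.32) in that order. All 6 listed genes of the AJUBA and zyxin family were compared, with a median of 0.34. LPP was the 1 that passed 2-fold, where 5.98% of all genes did in either direction.

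MYOF encodes myoferlin, a membrane protein of the ferlin family that acts in vesicle fusion and membrane repair and is a common member of YAP target lists. It had 24.9 FPKM in resistant cells and 1.86 FPKM in parental cells, 13.4 times as much. The log2 ratio was 3.18, at rank 11 of the 12405 genes from the highest, and was 3.67 with a pseudocount of 0.1 and 2.13 with a pseudocount of 5. MYOF exceeded 66.5% of genes in the resistant library and 7.23% in the parental library. It spans 93306429 to 93482317 of chromosome 10, minus strand (XLOC_002339). In the ferlin family, FER1L4, a pseudogene transcribed as a noncoding RNA, had 9.48 FPKM in resistant and 5.95 FPKM in parental cells (0.59), and OTOF, which encodes otoferlin of hair cell synapses, had 2.97 and 3.21 FPKM (-0.08) in that order. DYSF, FER1L5 and FER1L6 were not among the genes compared. The 250 bases before the RefSeq start of MYOF (GRCh38.p14, chr10:93482335-93482584, minus strand) are shown for contrast with YAP1: they hold 12 CpG dinucleotides, against 36 in the YAP1 stretch, and no CATTCC or GGAATG.
MYOF: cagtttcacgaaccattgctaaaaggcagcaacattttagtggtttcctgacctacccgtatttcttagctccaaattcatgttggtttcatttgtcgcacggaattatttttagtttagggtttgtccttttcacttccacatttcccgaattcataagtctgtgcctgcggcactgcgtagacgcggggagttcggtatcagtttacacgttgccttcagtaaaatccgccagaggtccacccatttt

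CRIM1, a transmembrane protein with cysteine-rich repeats that binds bone morphogenetic proteins (BMPs), had 10.96 FPKM in resistant cells and 1.57 FPKM in parental cells, 6.97 times as much. The log2 ratio was 2.22, at rank 50, and was 2.73 with a pseudocount of 0.1 and 1.28 with a pseudocount of 5, so it stayed past 2-fold in both. CRIM1 exceeded 41.7% of genes in the resistant library and 5.76% in the parental library. It spans 36355926 to 36551135 of chromosome 2, plus strand (XLOC_009827). Its end overlaps the end of FEZ2, which is on the minus strand and had 19.0 FPKM in resistant and 21.8 FPKM in parental cells (-0.19). The libraries keep strand, but whether counting used it is not given in the sources used here, so shared reads in the overlap cannot be told apart.

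FSTL1, a secreted glycoprotein related to follistatin that also binds BMPs, had 2.26 FPKM in resistant cells and 4.67 FPKM in parental cells. Parental cells thus had 2.07 times as much, but with 1 FPKM added the log2 ratio was -0.80 and lay inside the limit. It was -1.02 with a pseudocount of 0.1 and -0.41 with a pseudocount of 5, so FSTL1 was the 1 member gene whose call depended on the pseudocount. Of the 8 genes, CRIM1 lay nearest to the limit on the outside, at 2.22, and FSTL1 nearest on the inside. FSTL1 spans 120392293 to 120451253 of chromosome 3, minus strand (XLOC_013072). Of the 5 listed genes of its family 3 were compared, and the 2 relatives of FSTL1 among them differed in the other direction. FSTL3, which binds activins, was called higher, with 77.2 FPKM in resistant and 33.8 FPKM in parental cells (1.17). A second FSTL3 locus, without a strand, had 6.72 and 3.81 FPKM in that order (0.68), inside the limit. FST, the gene of follistatin, was low, with 3.39 FPKM in resistant and 1.87 FPKM in parental cells (0.61, and 0.29 with a pseudocount of 5).

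**Figure D2:**
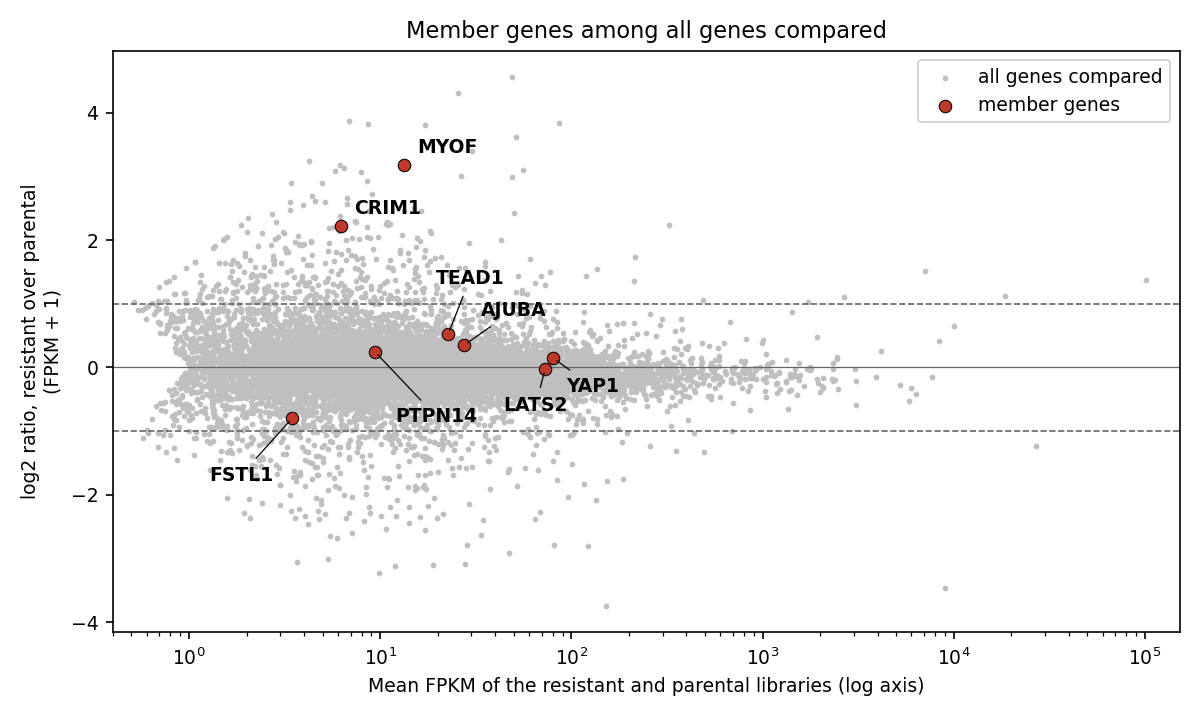
Log2 ratio of resistant over parental FPKM (1 FPKM added) against mean FPKM (log axis) for the 12405 genes compared (grey) and the 8 member genes (red, labelled), with dashed lines at 2-fold. MYOF (3.18) and CRIM1 (2.22) lie above the upper line, FSTL1 (-0.80) lies just inside the lower one, and the other 5 lie in the dense band.

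MYOF and CRIM1 had mean levels between 5 and 20 FPKM, a range in which 3.48% of 4823 genes were called higher. The genes whose levels in both libraries were most like those of each of 3 member genes were found by Euclidean distance of log2(FPKM + 1) over the 2 libraries. For CRIM1 they were MAP7, a microtubule-binding protein gene (10.6 FPKM in resistant and 1.63 FPKM in parental cells), COL7A1, a collagen gene (10.9 and 1.41 FPKM), and DEPTOR, an mTOR inhibitor gene (11.0 and 1.31 FPKM). For MYOF they were farther off: the nearest, NTS, had 33.0 FPKM in resistant and 1.41 FPKM in parental cells, at a distance of 0.46, where the nearest gene to CRIM1 was at 0.05. SLC16A8, through a locus without a strand, and CLIC3 came next for MYOF. DCTPP1, GORASP2 and MRPS15 were nearest to YAP1, with log2 ratios from 0.09 to 0.18. With 2 libraries such likeness rests on 2 values per gene. The log2 ratio comes from the same 2 values, so ratios close to that of the member gene follow from the choice.

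The target genes of YAP1 and TAZ differed in both directions. Of 22 listed targets 18 were compared, among them 4 of the genes above. In this list 2 were called higher and 1 lower, where 3.28% of all genes were higher and 2.70% lower. The 2 called higher were MYOF and CRIM1, which were chosen with their values known. The list median was 0.14 beside -0.04 over all genes, and without the 4 member genes it was 0.10, with 0 higher and 1 lower of 14. CCDC80, a secreted matrix protein gene, was the 1 called lower, with 2.66 FPKM in resistant and 7.54 FPKM in parental cells (-1.22, and -0.71 with a pseudocount of 5). AMOTL2, an angiomotin that binds YAP1, had 11.0 FPKM in resistant and 5.68 FPKM in parental cells (0.84).

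The CCN genes, classical readouts of YAP1 that encode matrix-associated proteins, differed in opposite directions and were named after their values were seen. CCN2, listed in the table under its older name CTGF, had 437 FPKM in resistant and 598 FPKM in parental cells (-0.45), and CCN1, listed as CYR61, had 102 and 59.4 FPKM (0.77) in that order. ANKRD1, another such readout, had 1.74 FPKM in resistant and 0.581 FPKM in parental cells (0.79). With a pseudocount of 1 none of these 3 passed 2-fold, while ANKRD1 passed it with a pseudocount of 0.1 (1.43). The signs of all 3 were the same under both other scalings. AXL, IGFBP3, NT5E and TGFB2 were not analysed here.

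Regulators upstream of LATS included FAT4, a giant protocadherin, with 17.2 FPKM in resistant and 7.67 FPKM in parental cells (1.07), and LLGL2, a cell polarity gene, with 16.8 and 7.87 FPKM (1.01) in that order. Of 25 listed genes 22 were compared, and these were the 2 past 2-fold, where 3.28% of all genes were higher and 2.70% lower. Both passed by a narrow margin: FAT4 was at 0.99 and LLGL2 at 0.93 under the equal-sum scaling, and at 0.81 and 0.76 with a pseudocount of 5. TNIK, a kinase of the MAP4K group, had 0.443 FPKM in resistant and 1.56 FPKM in parental cells (-0.82, and -1.61 with a pseudocount of 0.1). The list median was 0.18. Genes of this list with a second locus, each without a strand, were TAOK2, TAOK3 and WWC3. That of TAOK2 had 7.57 FPKM in resistant and 2.76 FPKM in parental cells (1.19, beside 0.24 in the locus used). That of TAOK3 had 2.20 and 5.37 FPKM in the same order (-0.99, beside -0.23), and that of WWC3 was at -0.06.

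Negative regulators of the kinases were compared for all 18 listed genes, of which 0 passed 2-fold, beside 5.98% of all genes. Their median of 0.01 became -0.07 under the equal-sum scaling. Members of the STRIPAK phosphatase complex, which inactivates the MST kinases, differed in both directions: SLMAP had 30.1 FPKM in resistant and 14.9 FPKM in parental cells (0.97, and 1.01 after division by the median ratio and with a pseudocount of 0.1), and STRIP2 had 3.54 and 7.60 FPKM (-0.92, and -1.08 with a pseudocount of 0.1) in that order. Of the 14-3-3 and YAP1 turnover genes 9 of 11 were compared and SFN alone was called higher, with 45.3 FPKM in resistant and 19.8 FPKM in parental cells (1.15). Over all genes, 3.28% were called higher. Abundant 14-3-3 genes varied: YWHAQ (306 FPKM in resistant and 401 FPKM in parental cells, -0.39), YWHAG (107 and 127 FPKM, -0.25) and YWHAZ (301 and 329 FPKM, -0.13) were below 0. YWHAB was nearly equal (101.5 and 102.1 FPKM, -0.01), and YWHAH was above 0 (89.8 and 80.4 FPKM, 0.16). The kinase gene CSNK1D was below 0 (29.9 and 33.7 FPKM, -0.16), and the list median was -0.11. Over the 5 pathway lists together, 62 of 71 genes were compared and 3 were called higher and 0 lower, where 5.98% of all genes passed 2-fold in either direction.

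**Figure D3:**
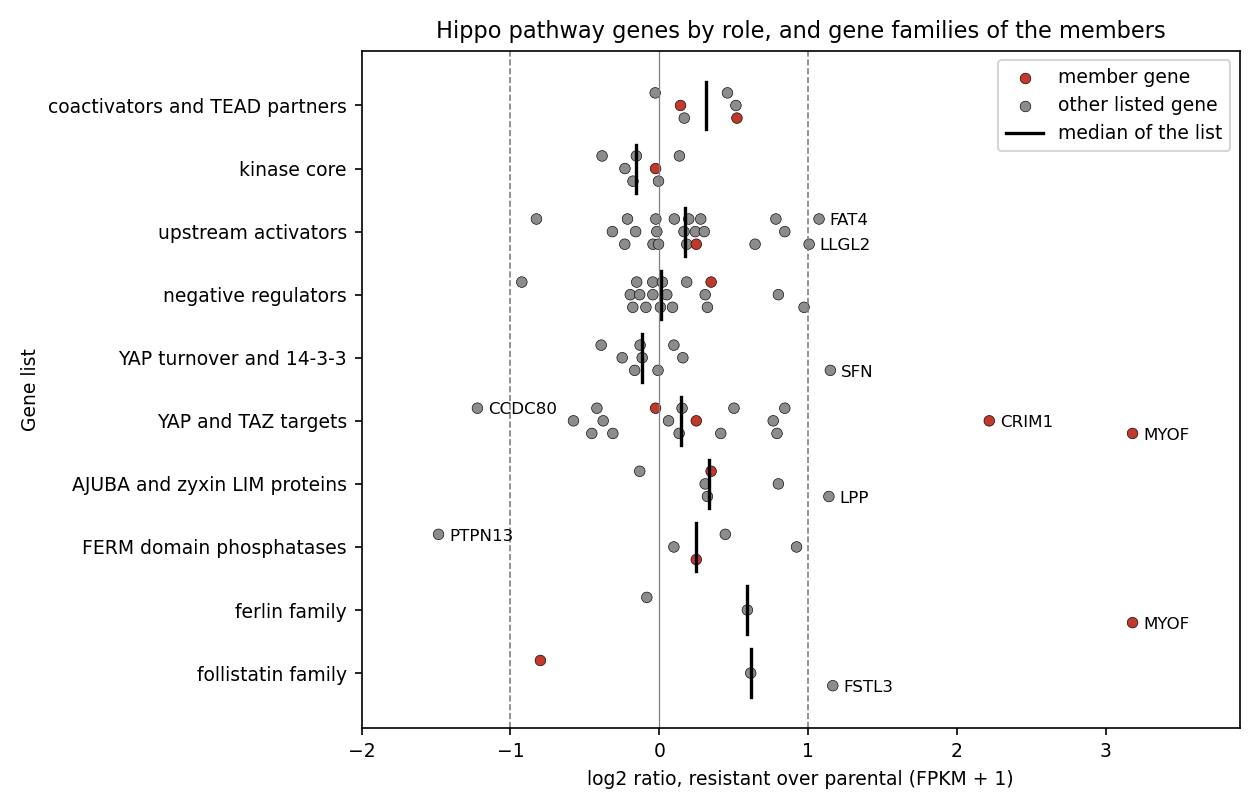
Log2 ratio of resistant over parental FPKM (1 FPKM added) for each compared gene of 10 lists, with member genes in red, other genes in grey, list medians as black bars and dashed lines at 2-fold. Genes past 2-fold are labelled. The kinase core lies in a narrow range within 2-fold, and MYOF and CRIM1 lie far to the right of the other targets.

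The chromosomal neighbours of the 8 genes were compared next, taking the 5 nearest compared genes on each side in the order of GENCODE. Of these 80 neighbours 1 was called higher and 1 lower, where 3.28% of all genes were higher and 2.70% lower. Their median was -0.04. The 1 called higher was beside MYOF: CYP26A1, an enzyme that degrades retinoic acid, had 3.25 FPKM in resistant and 0.405 FPKM in parental cells (1.597). CYP26A1 reached 1 FPKM in the resistant library alone. It lies 229 kb from MYOF, on chromosome 10 from 93073475 to 93077890. CEP55, which lies closer to MYOF on the other side, at 14.3 kb, had 92.0 FPKM in resistant and 85.5 FPKM in parental cells (0.10). The neighbours of CRIM1 ran from -0.26 to 0.32, with none past 2-fold, but the 5 before its start lay 2757 to 4039 kb away. BIRC2, an apoptosis inhibitor gene beside YAP1 at a distance of 114 kb, had 12.4 FPKM in resistant and 10.2 FPKM in parental cells (0.25). ARNTL, a clock factor gene beside TEAD1, was the 1 called lower, with 2.06 FPKM in resistant and 5.27 FPKM in parental cells (-1.04). Both neighbour calls are of low genes, and they were not computed under other pseudocounts. CYP26A1, BIRC2, CEP55 and ARNTL were chosen after their values were seen.

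**Figure D4:**
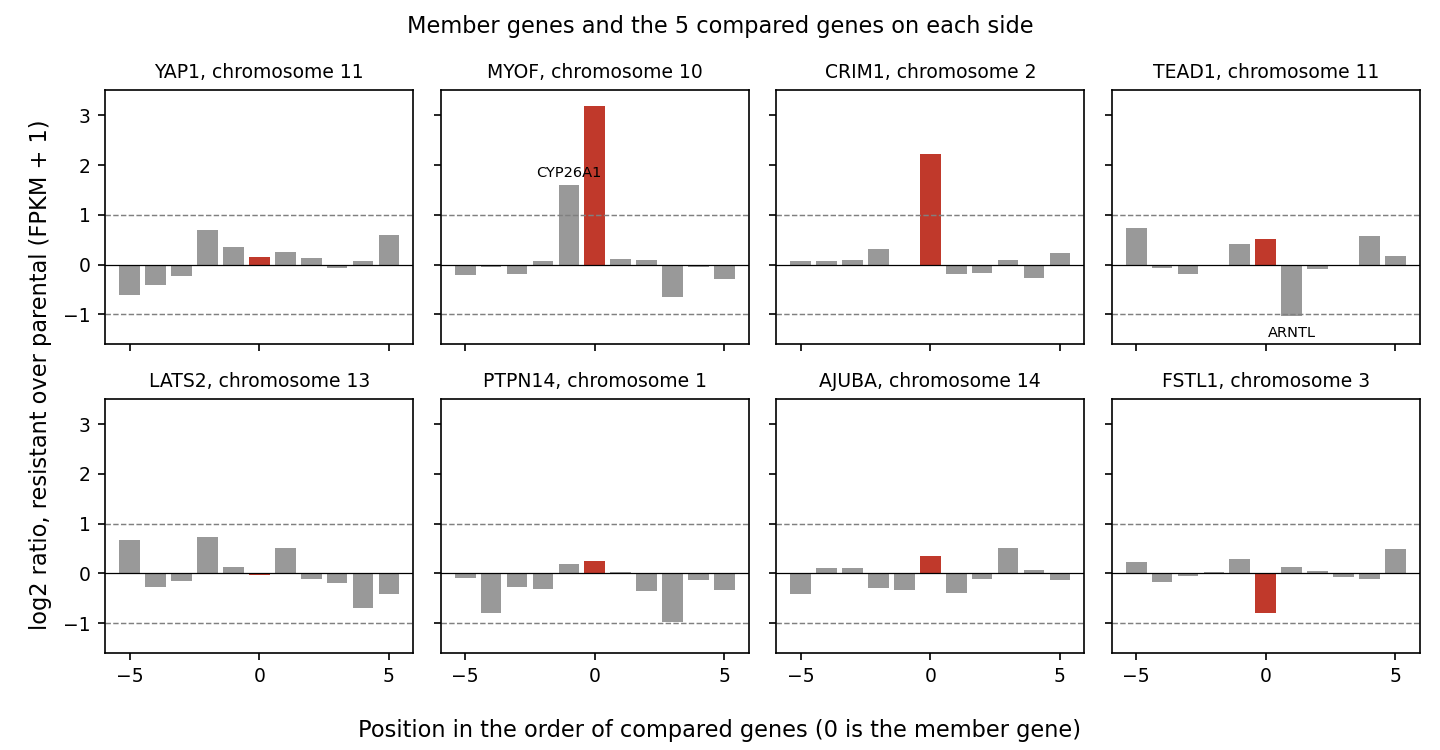
Log2 ratio of resistant over parental FPKM (1 FPKM added) of each member gene (red bar at 0) and of the 5 compared genes on each side in chromosomal order (grey bars), with dashed lines at 2-fold. CYP26A1 beside MYOF and ARNTL beside TEAD1 are the 2 neighbours past 2-fold.

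RefSeq promoter windows, 250 bases before to 50 after a start site, were found for 6 of the 8 genes, those other than CRIM1 and TEAD1. The letters CATTCC, read on both strands, were present in 4 of the 6 (YAP1, PTPN14, LATS2 and AJUBA). AJUBA had 2 windows, so by window this is 4 of 7 (57.1%), beside 14.03% of all 35116 windows. The AJUBA match lay in its second window, at 22976793 to 22977092 inside the gene span, and its first window had none. The LATS2 match began after the start site, at base 10. MYOF and FSTL1, the genes of the largest differences with a window, had none. The AP-1 letters TGANTCA, also read on both strands, were in 0 of the 7 windows and in 7.71% of all windows. The matches in PTPN14 and LATS2, feedback regulators of the pathway, are shown in 30 bases each, with the match in capitals, beside 90 bases of CCN2 that hold 3 matches.
PTPN14: cctcccgggccgCATTCCtccccgcccccg
LATS2: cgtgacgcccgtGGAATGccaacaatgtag
CCN2: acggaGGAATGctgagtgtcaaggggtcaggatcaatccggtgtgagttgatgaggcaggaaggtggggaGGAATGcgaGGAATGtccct

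These stretches lie at chr1:214551785-214551814 for PTPN14, chr13:21061560-21061589 for LATS2 and chr6:131951457-131951546 for CCN2, all on the minus strand of GRCh38.p14. A match is a run of letters and not a measured binding site. Among the YAP and TAZ targets compared, 12 had a window and 7 of these held CATTCC, which is 7 of 13 windows. TGANTCA was in 2 of these 13 windows (15.4%), beside 7.71% of all windows.

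The values of the member genes were computed under other pseudocounts and scalings. MYOF and CRIM1 passed 2-fold under each of the 4 other settings of this kind that were run, and YAP1, TEAD1, LATS2, PTPN14 and the main AJUBA locus passed it under none of them.

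**Figure D5:**
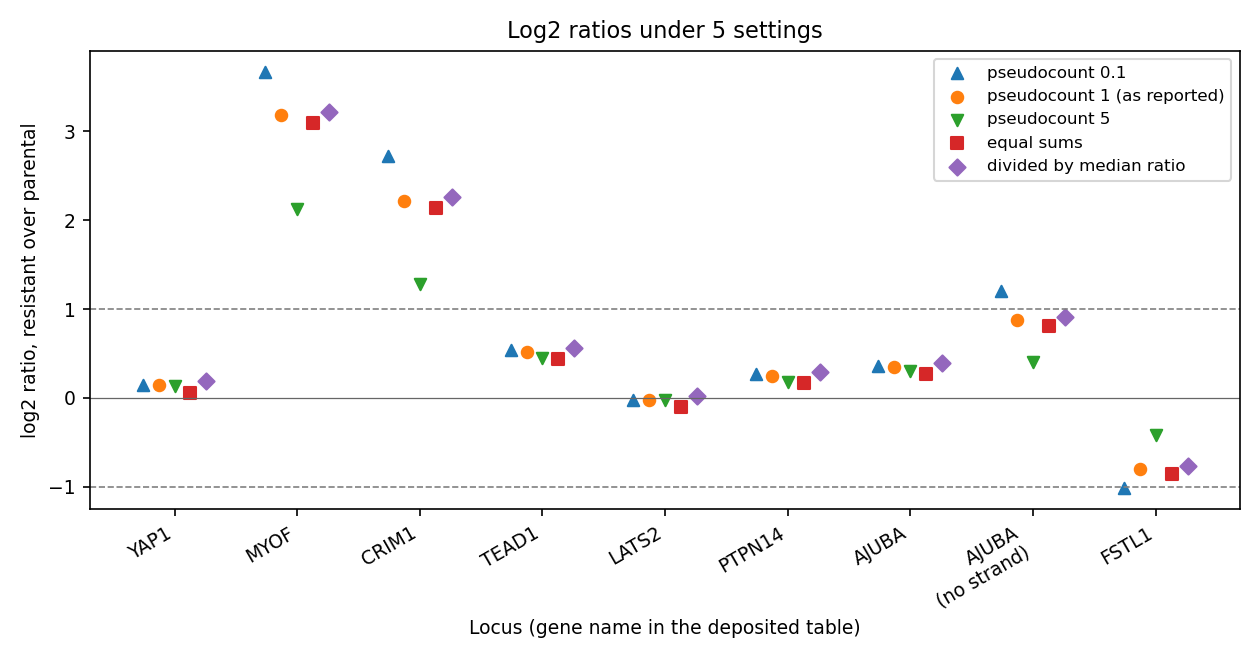
Log2 ratio of resistant over parental FPKM of the 9 loci with a pseudocount of 0.1, 1 or 5 FPKM and, at a pseudocount of 1, under the equal-sum scaling or the resistant library divided by the median ratio. Dashed lines mark 2-fold. MYOF spans 2.13 to 3.67 and CRIM1 1.28 to 2.73, and FSTL1 crosses the lower line at a pseudocount of 0.1 (-1.02).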

How the data were processed

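RNA of 1 cisplatin-resistant and 1 parental SBC5 culture was made into strand-preserving libraries, per the labels' protocols. The authors deposited FPKM for each library, per the file headers, with no counts. Per the submitters' processing notes, TopHat2 (no version) and hg38 were used. What computed the FPKM, and with which annotation, is not given in the sources used here. By their names, which hold the sample descriptions, all columns found a sample (0 unmatched).

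The 2919 loci without a name and 23 with a date as name were left out. The locus of highest mean FPKM stood for a name with several (2282 names), and MOB4 was read from a locus joined with HSPE1. Strand was inferred from the order of the table together with the GENCODE strand of named genes. It placed 12883 loci on a strand, and 98.7% of the 11744 that GENCODE annotates matched it. The GENCODE strand was used in the placing, so this match is not an independent check. Depth could not be recovered. Ratios of whole numbers no larger than 20, times a common factor of 0.996, matched 52.9% of 7591 low loci (under 5 FPKM, tolerance 2e-05) and 0 of the 9 member loci.

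The member genes and the gene lists were chosen with earlier results of these data known. Named genes were all members, each list gene past 2-fold and, where fewer than 4 passed, the largest up to 4, and the 3 nearest in level to YAP1, MYOF and CRIM1. LATS1, TEAD2, the CCN genes, ANKRD1, FEZ2, TAOK2, TAOK3, WWC3, YWHAB, YWHAH and YWHAZ were named after their values were seen. The equal-sum scaling and division by the median ratio were alternatives, as were pseudocounts of 0.1 and 5, no filter, a filter of 5 FPKM, summed loci, strand-assigned loci only and a 4-fold limit. The procedure was tested on simulated data, limited to genes of at least 5 FPKM in parental cells, with planted differences well past 2-fold and small noise. This checked the code only, and it did not cover parental levels as low as those of MYOF, CRIM1 and FSTL1. Python 3.11.15, pandas 2.3.3, NumPy 2.4.6 and matplotlib 3.10.9 were used.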

Additional observations from a re-analysis of the deposited data

How the results depend on the processing

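Calls rested on size alone. With a pseudocount of 0.1 FPKM, 614 genes of the table were higher and 478 lower. In that setting 1 member gene (FSTL1, -1.02) was lower, and 3 YAP and TAZ targets were higher and 2 lower. Of the pathway lists 4 genes were higher and 2 lower, and the AJUBA locus without a strand reached 1.21. With a pseudocount of 5 FPKM, 142 genes were higher and 136 lower, 0 targets were lower and 1 pathway gene was higher. Under the equal-sum scaling, 357 genes of the table were higher, 380 were lower and 1 pathway gene was higher. A 4-fold limit left 76 genes higher and 60 lower in the table, 0 targets lower and 0 pathway genes higher. Among the 8 member genes, 2 (MYOF and CRIM1) were higher in every setting run. Not all of these settings could change that. MYOF and CRIM1 have 1 locus each, placed on a strand, so no filter, summed loci and strand-assigned loci only left their values as they were. They passed the filter of 5 FPKM through the resistant library alone. Scaling moved the median of all genes to -0.12 (equal sum) and 0.00193 (median ratio). No called value changed sign. No paired analysis was possible because each group had 1 library. Without read numbers, differences of low values such as those of MYOF, CRIM1 and FSTL1 in their lower library carry an unknown counting error.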
